A study of Mus musculus with 6 samples.

Results

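RNA polymerase II transcribes the protein-coding genes of the nucleus. The genes described here encode 7 of its subunits (Polr2a, Polr2b, Polr2c, Polr2e, Polr2f, Polr2g and Polr2h) and 3 kinases that phosphorylate it or its partners (Cdk7, Cdk9 and Cdk12). They were chosen by symbol from a table of ligated probe counts of mouse islets, in which a row name is a gene symbol followed by a probe number. Of these 10 genes 9 had a row, with 13 probe rows of 30146 in the table, and Polr2f was not analysed here. The series compared cultured pancreatic islets of wild-type male C57Bl/6 mice after 48 h with 10 uM cisplatin, a platinum drug that crosslinks DNA, with islets kept for 48 h in saline vehicle. Both groups were cultured in the same serum-containing medium, and the islets of each of 3 mice were divided between them, which gave 3 cisplatin and 3 vehicle libraries. The age of the mice is not given in the sources used here. Libraries were made from lysates with TempO-Seq, in which neighbouring oligonucleotides are ligated on their target RNA and counted, so each row reports only the stretch that its probe pair covers.

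The enzyme is built around the subunits RPB1 and RPB2, encoded by Polr2a and Polr2b, which form the active site. RPB1 carries a long C-terminal tail of repeated heptapeptides, whose phosphorylation marks the steps of the transcription cycle. CDK7, part of the initiation factor TFIIH, phosphorylates the tail at promoters, CDK9 releases polymerases that pause shortly after the start, and CDK12 acts during elongation and, in human cells, is known for sustaining the expression of long DNA repair genes. Bulky platinum adducts on the template strand can stall the elongating enzyme. RNA was measured here, and neither protein nor its phosphorylation.

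No row of these genes passed the test between cisplatin and vehicle islets. Of the 13 rows 6 had enough counts to be tested, belonging to 5 genes (Polr2a, Polr2c with 2 rows, Polr2e, Cdk7 and Cdk9), and 0 were called at an adjusted p under 0.05, against 25.0% of all 9381 tested rows. The row of Polr2a had the largest difference, a log2 fold change of 0.94 ± 0.34 (SE), and it narrowly missed the threshold (edgeR quasi-likelihood test, Benjamini-Hochberg adjusted p = 0.0578). It was the 1 row of the 6 with an unadjusted p under 0.05, against 37.3% of all tested rows, and the 1 row called by DESeq2, while limma-voom called 0. Adjusted p-values of the 6 rows ran up to 0.800. The 6 log2 fold changes had a median of 0.27, against -0.07 over all tested rows, with 4 above 0 and 2 below. The other 7 rows held too few counts to be tested, among them all rows of Polr2b, Polr2g, Polr2h and Cdk12.

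The promoters of Polr2a, Cdk7 and Cdk9 are shown because these are the gene with the largest difference and the kinases with tested rows. Each covers 250 bases before and 50 after the gene's start, from RefSeq's annotation of GRCm38.p6, written 5′ to 3′ on the gene's own strand. Capitals mark, on either strand, the TATA box core TATAAA, the GC box core GGGCGG, the core CGGAAG bound by ETS family factors, and the CCAAT box. These motifs were picked after the sequences had been read. Polr2a lies on the minus strand at chr11:69758584-69758883, Cdk7 on the minus strand at chr13:100730893-100731192 and Cdk9 on the minus strand at chr2:32712735-32713034.
Polr2a: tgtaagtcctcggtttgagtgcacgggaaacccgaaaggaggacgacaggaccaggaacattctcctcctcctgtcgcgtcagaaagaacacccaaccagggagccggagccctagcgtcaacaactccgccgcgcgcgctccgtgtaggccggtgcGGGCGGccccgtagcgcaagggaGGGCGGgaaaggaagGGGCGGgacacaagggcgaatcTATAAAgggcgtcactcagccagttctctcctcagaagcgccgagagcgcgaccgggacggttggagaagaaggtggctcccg
Cdk7: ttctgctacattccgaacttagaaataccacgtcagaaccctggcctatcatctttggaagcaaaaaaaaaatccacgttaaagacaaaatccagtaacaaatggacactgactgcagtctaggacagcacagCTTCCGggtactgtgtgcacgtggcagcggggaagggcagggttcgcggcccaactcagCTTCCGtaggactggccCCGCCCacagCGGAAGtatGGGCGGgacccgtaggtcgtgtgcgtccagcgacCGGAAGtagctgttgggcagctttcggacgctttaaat
Cdk9: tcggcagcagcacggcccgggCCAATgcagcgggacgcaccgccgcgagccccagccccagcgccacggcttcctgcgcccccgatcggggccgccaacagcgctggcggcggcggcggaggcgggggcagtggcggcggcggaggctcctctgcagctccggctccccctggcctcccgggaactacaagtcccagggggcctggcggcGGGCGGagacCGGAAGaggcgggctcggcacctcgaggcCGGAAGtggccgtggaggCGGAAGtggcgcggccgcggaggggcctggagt

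The Polr2a promoter held 1 TATA box core, whose first base lay 33 bases before the start, and 3 GC box cores, at 93, 70 and 55 bases before it. The TATA box core occurred in 13.6% of 32851 promoter windows of the same length and the GC box core in 35.7%. The Cdk7 promoter held the ETS core 4 times and the GC box core 2 times, and that of Cdk9 held the ETS core 3 times, the GC box core 1 time and the CCAAT box 1 time. The ETS core occurred in 16.9% of all windows and the CCAAT box in 37.4%. Of the 10 genes 9 had a promoter in the table. The first window listed for each held the TATA box core in 2 genes (Polr2a and Polr2c), the GC box core in 7, the ETS core in 5 and the CCAAT box in 2. Their base composition was 50% to 78.3% G and C, against a median of 52.7% over all windows, with 18 to 39 CpG dinucleotides against a median of 7. These are matches of letters and no evidence of binding.

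The libraries differed in depth. Cisplatin libraries held 1116916 to 1366829 counts and vehicle libraries 1470227 to 2272276, and the 10 most abundant rows took 21.4% to 43.5% of the cisplatin counts and 19.6% to 30.4% of the vehicle counts. Levels below are therefore in CPM (counts scaled to a common library size) after scaling by trimmed means of M-values (TMM), and scaling by library totals alone shifted the median log2 fold change of all tested rows to -0.54. Markers of the islet's cell types were measured in the same libraries as sums over marker lists. The 7 beta cell markers summed to 59600 to 140000 CPM in cisplatin libraries and 91500 to 162000 CPM in vehicle libraries, a sum that consists mostly of Ins1, Ins2 and Iapp, none of which was called. Of these 7 markers 3 fell and 0 rose, with a median log2 fold change of -1.80 against -0.03 over all genes. Those that fell were the insulin gene activator Mafa (-2.90 ± 0.32, edgeR adjusted p = 5.35e-05), the secreted peptide gene Ucn3 (-2.73 ± 0.43, adjusted p = 0.000643) and the glucose-6-phosphatase gene G6pc2 (-2.07 ± 0.32, adjusted p = 0.000522). The 6 alpha cell markers summed to 8260 to 11200 CPM with cisplatin and 18900 to 52100 CPM with vehicle, with Irx1 at 0 in all cisplatin libraries. The 6 macrophage markers summed to 11 to 23.6 CPM with cisplatin and 117 to 185 CPM with vehicle, with Adgre1 at 0 in all cisplatin libraries. The 6 endothelial and stromal markers summed to 33.0 to 47.5 CPM with cisplatin and 85.2 to 162 CPM with vehicle. The 6 acinar and duct markers in the table summed to 1180 to 2160 CPM with cisplatin and 1050 to 1450 CPM with vehicle, with Prss2 at 0 in all libraries. This sum consists mostly of Krt7, at 1080, 1060 and 2050 CPM with cisplatin and 1240, 945 and 1400 CPM with vehicle. Cela1, Cpa1 and Krt19 held too few counts to be tested. In the same test 3 of 5 tested alpha cell markers fell, as did 5 of 5 tested macrophage markers, 3 of 5 tested endothelial and stromal markers and 0 of 2 tested acinar and duct markers. Among all tested genes, each by its most abundant row, 13.9% were called lower. Of the endothelial and stromal markers Kdr, Eng and Rgs5 fell, while Col1a1 and Col3a1 had log2 fold changes of -0.03 and -0.15. The part of these cell types in the values below was not tested, and in islet lysates fewer cells of a type and less RNA per cell cannot be told apart.

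Polr2a encodes RPB1, the largest subunit and the target of the kinases described here. Its row had 178, 339 and 140 CPM in cisplatin libraries 1, 2 and 3, against 123, 92.2 and 128 CPM in the vehicle libraries of the same mice. Every cisplatin library lay above every vehicle library, as in 19.1% of all tested rows, and cisplatin library 2 stood highest by far. The means were 219 ± 106 CPM with cisplatin and 114 ± 19.4 CPM with vehicle (SD, n = 3 each), a 1.92-fold difference with a 95% interval of 1.16 to 3.18 that is not adjusted for the number of rows. Without cisplatin library 2 the log2 fold change was 0.47 (edgeR adjusted p = 0.314), while without cisplatin library 1 it was 1.15 (adjusted p = 0.0292) and without cisplatin library 3 it was 1.20 (adjusted p = 0.0270), which passed the threshold. Scaled only by library totals, Polr2a had 189, 265 and 95.8 CPM with cisplatin against 155, 99.3 and 143 CPM with vehicle. On that scale the groups overlapped and the log2 fold change was 0.46 (adjusted p = 0.403), and 0 of the 6 tested rows had every cisplatin library above every vehicle library, against 9.05% of all tested rows.

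**Figure D1:**
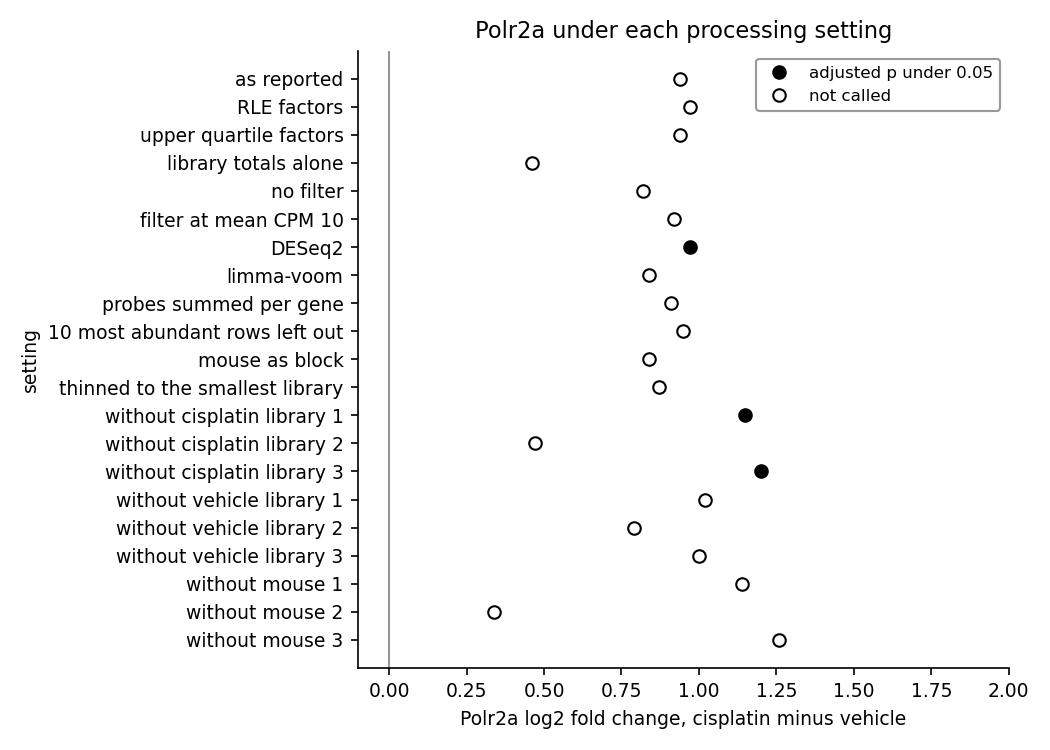
Log2 fold change of the Polr2a row, cisplatin minus vehicle (horizontal axis), under the reported fit and each alternative setting (vertical axis); filled points passed an adjusted p of 0.05. All points lie above 0, between 0.34 without mouse 2 and 1.26 without mouse 3, and 3 are filled.

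A ratio within a library does not depend on how libraries are scaled to each other. Polr2a counts over the summed counts of the other subunits listed (Polr2b, Polr2c, Polr2e, Polr2g and Polr2h) stood at 1.40, 2.38 and 1.09 in cisplatin libraries 1, 2 and 3, against 0.878, 0.658 and 0.985 in vehicle libraries. The ratio was above 1 in each cisplatin library and below 1 in each vehicle library, and it was higher with cisplatin in all 3 mice. Polr2b had 0 counts and Polr2g and Polr2h few, so the other subunits in this ratio are mostly Polr2c and Polr2e. The list of further polymerase genes described below is left out of it. There Polr2d and Polr2l had log2 fold changes of 1.81 and 1.40, Polr2j 0.08 and Polr2m -1.40. A ratio that includes them was not tested. On the log2 scale the ratio without them averaged 0.62 ± 0.57 with cisplatin and -0.27 ± 0.30 with vehicle (SD, n = 3 each). The difference was 0.89 (two-sided exact permutation p = 0.1, the smallest that 3 against 3 libraries allow). Without cisplatin library 2 the difference was 0.58. The value of such a ratio also depends on how well each probe captures its RNA, so it does not give the proportion of the transcripts.

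Polr2b encodes RPB2, which closes the active site with RPB1. Its probe had 0 counts in all 6 libraries, which leaves Polr2b unmeasured; with 0 counts a library allows up to 3 counts, or 2.19 to 2.69 CPM in cisplatin libraries and 1.32 to 2.04 CPM in vehicle libraries by their totals. Such limits cover counting error only, and a probe that fails to ligate gives 0 at any level of its RNA.

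Polr2c encodes RPB3, around which the core of the enzyme assembles, and it was read by 4 probes. The most abundant one had 78.6, 67.5 and 79.4 CPM in cisplatin libraries, against 77.9, 56.8 and 69.7 CPM in vehicle libraries. The groups overlapped, with a log2 fold change of 0.14 ± 0.31 (edgeR adjusted p = 0.792) and a fold of 1.1 with a 95% interval of 0.692 to 1.75. The second most abundant probe had 13.5, 19.0 and 20.4 CPM with cisplatin and 20.6, 32.2 and 20.5 CPM with vehicle. Here all cisplatin libraries lay below all vehicle libraries, by a narrow margin, as in 24.3% of all tested rows, and the log2 fold change was -0.46 ± 0.48 (adjusted p = 0.527), a fold of 0.725 with an interval of 0.354 to 1.48. The difference between these probes was not tested. The other Polr2c probes held 3 counts with cisplatin and 15 with vehicle, and 3 with cisplatin and 4 with vehicle, and were not tested.

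Polr2e and Polr2h encode RPB5 and RPB8, which are shared by all nuclear RNA polymerases. Polr2e had 25.4, 56.1 and 17.2 CPM in cisplatin libraries, against 34.8, 45.5 and 33.5 CPM in vehicle libraries. Its highest and its lowest value were both in cisplatin libraries, and the log2 fold change was -0.20 ± 0.46 (edgeR adjusted p = 0.800), a fold of 0.872 with a 95% interval of 0.441 to 1.72. The value turned positive, 0.12, without cisplatin library 3, which held the lowest level. Polr2h had 11, 0 and 4 counts with cisplatin and 7, 1 and 10 counts with vehicle, and was not tested. Polr2g, which encodes RPB7 of the stalk where the nascent RNA leaves, had 0, 0 and 2 counts with cisplatin and 1, 0 and 4 counts with vehicle. At these counts no difference in Polr2h or Polr2g was detectable.

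Cdk7 encodes the catalytic subunit of the CDK-activating kinase within TFIIH. Its abundant row had 193, 89.4 and 132 CPM in cisplatin libraries 1, 2 and 3, against 57.7, 177 and 81.1 CPM in vehicle libraries. The groups overlapped, and the mice went opposite ways: the cisplatin library was higher in mice 1 and 3 and lower in mouse 2, whose vehicle library held the highest vehicle value. The means were 138 ± 52.0 CPM with cisplatin and 105 ± 63.4 CPM with vehicle (SD, n = 3 each), a log2 fold change of 0.40 ± 0.41 (edgeR adjusted p = 0.527) and a fold of 1.32 with a 95% interval of 0.713 to 2.44. Without mouse 1 the log2 fold change was -0.19, and without mouse 2 it was 1.22 (adjusted p = 0.0542). The other Cdk7 probe held 2 counts with cisplatin and 6 with vehicle.

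Cdk9 encodes the kinase of P-TEFb, which releases paused polymerases. Its row had 54.1, 68.4 and 57.9 CPM in cisplatin libraries, against 44.7, 53.0 and 35.0 CPM in vehicle libraries. All cisplatin libraries lay above all vehicle libraries on this scale, as in 19.1% of all tested rows. The groups overlapped when scaled by library totals, at 57.3, 53.4 and 39.5 CPM with cisplatin and 56.6, 57.1 and 39.2 CPM with vehicle. The log2 fold change was 0.45 ± 0.34 (edgeR adjusted p = 0.374), a fold of 1.36 with a 95% interval of 0.819 to 2.27, and it was -0.03 with library totals alone. Counts of Cdk7 per count of Cdk9 stood at 3.58, 1.31 and 2.3 in cisplatin libraries and 1.33, 3.35 and 2.34 in vehicle libraries. On the log2 scale this ratio averaged 1.14 ± 0.73 with cisplatin and 1.13 ± 0.67 with vehicle (SD, n = 3 each), a difference of 0.02 (two-sided exact permutation p = 1).

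Cdk12 encodes a kinase that partners with cyclin K during elongation. It had 0, 0 and 8 counts in cisplatin libraries 1, 2 and 3, against 6, 7 and 16 counts in vehicle libraries. All of its cisplatin counts lay in library 3. There Cdk12 stood at 5.85 CPM by library totals (exact 95% interval 2.53 to 11.5), within the vehicle range of 3.00 to 7.04 CPM. On the TMM scale used elsewhere, that library stood at 8.58 CPM, above vehicle libraries 1, 2 and 3 at 2.37, 4.42 and 6.3 CPM. With 0 counts, the exact 95% intervals of cisplatin libraries 1 and 2 end at 3.3 and 2.74 CPM by library totals. The exact 95% intervals of vehicle libraries 1, 2 and 3 begin at 1.1, 1.91 and 4.02 CPM, so what these 0 counts allow overlaps the intervals of vehicle libraries 1 and 2. The log2 ratio of Cdk12 to Cdk9 counts has no finite value where Cdk12 is at 0; with 0.5 added to each count it averaged -5.62 ± 2.55 with cisplatin and -3.35 ± 0.85 with vehicle (SD, n = 3 each, two-sided exact permutation p = 0.3). The row was under the count minimum and was not tested, and intervals cover counting error only. In GENCODE M21 Cdk12 spans 75.4 kb, the longest of the genes described here, against 24.6 kb for Polr2a, 28.3 kb for Cdk7, 16.1 kb for Polr2c, 7.29 kb for Cdk9 and 3.85 kb for Polr2e. The part of gene span in these values was not tested.

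**Figure D2:**
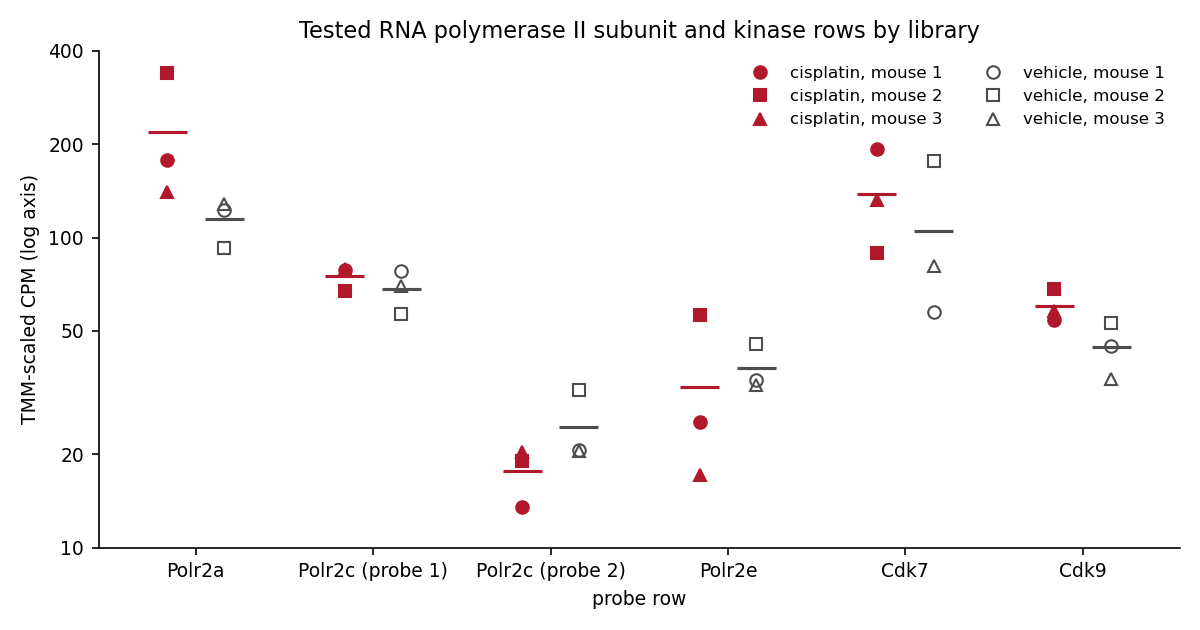
TMM-scaled CPM on a log axis (vertical) of the 6 tested rows (horizontal), with cisplatin libraries as filled red symbols left of vehicle libraries as open grey symbols, 1 symbol shape per mouse and bars at the group means. Polr2a and Cdk9 show all cisplatin libraries above all vehicle libraries, and the second Polr2c probe shows them below.

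Together the 13 rows took 0.0586%, 0.0499% and 0.0320% of the counts in cisplatin libraries 1, 2 and 3, against 0.0466%, 0.0503% and 0.0427% in vehicle libraries. The mean shares were 0.0468% ± 0.0136 with cisplatin and 0.0466% ± 0.00382 with vehicle (SD, n = 3 each), with a wider spread among cisplatin libraries. These are shares of all counts, so rows that take more of a library lower them.

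**Figure D3:**
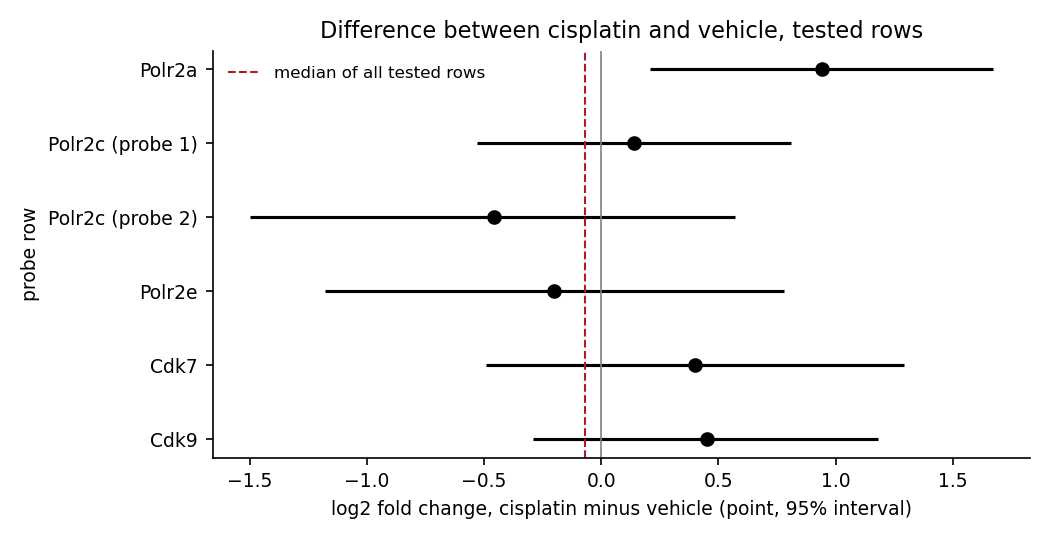
Log2 fold change, cisplatin minus vehicle, with its 95% interval (horizontal axis) for the 6 tested rows (vertical axis); the dashed line marks the median of all tested rows at -0.07. The interval of Polr2a runs from 0.21 to 1.67, and those of the other 5 rows include 0.

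The genes that work with these subunits and kinases were read from 8 lists of 96 genes, each gene represented by its most abundant row. Of 62 genes tested 10 rose and 4 fell, or 16.1% and 6.45%, against 12.2% called higher and 13.9% called lower among all genes read the same way. Scaled only by library totals, 5 rose and 11 fell. The lists together were at 6 higher and 0 lower without vehicle library 1, at 8 higher and 1 lower without vehicle library 3, at 12 higher and 1 lower without cisplatin library 2 and at 10 higher and 2 lower without vehicle library 2.

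Among the other subunits of RNA polymerase II or proteins bound to it, 2 of 4 tested genes rose and 1 fell, with a median log2 fold change of 0.74 against -0.03 over all genes. Polr2d encodes RPB4, the partner of RPB7 in the stalk, and had 191, 106 and 219 CPM in cisplatin libraries against 34.0, 67.6 and 46.4 CPM in vehicle libraries. All cisplatin libraries lay above all vehicle libraries, as in 19.1% of all tested rows, and the log2 fold change was 1.81 ± 0.36 (edgeR adjusted p = 0.00293). A separate Polr2d probe, outside the choice of 1 row per gene and picked after its values were seen, gave 1.73 ± 0.32 (adjusted p = 0.00175). The Polr2d call was lost without mouse 3 (1.55, adjusted p = 0.0617). Polr2l, which encodes the small shared subunit RPB10, had 210, 120 and 81.5 CPM with cisplatin and 39.9, 70.7 and 46.0 CPM with vehicle, a log2 fold change of 1.40 ± 0.38 (adjusted p = 0.0168). The Polr2l call needed cisplatin library 1 (1.04 and adjusted p = 0.0510 when it was left out) and vehicle libraries 1 and 3 (0.0893 and 0.0786 as adjusted p when either was left out), and scaling by totals also ended it (adjusted p = 0.0900).

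Polr2m encodes a protein that binds the enzyme and competes with an initiation factor. It fell to 10.1, 15.2 and 13.9 CPM in cisplatin libraries, against 31.6, 35.4 and 37.0 CPM in vehicle libraries, a log2 fold change of -1.40 ± 0.45 (edgeR adjusted p = 0.0356). All of its cisplatin libraries lay below all vehicle libraries, as in 24.3% of all tested rows. The call was lost with the mouse as a block (adjusted p = 0.0654) and without any single library (adjusted p = 0.0513 to 0.155). The list held 1 gene that rose without cisplatin library 1, vehicle library 1 or vehicle library 3, and 0 that fell without any single library. Whether Polr2d and Polr2l differed from the subunits that did not pass the test was not tested.

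The partners of the kinases gave 0 calls among 4 tested genes by their most abundant rows, with a median of 0.07. Cdk13, the close relative of Cdk12, had 92.8 ± 31.7 CPM with cisplatin and 68.8 ± 32.8 CPM with vehicle (SD, n = 3 each), a log2 fold change of 0.42 ± 0.41 (edgeR adjusted p = 0.496) that was -0.10 with library totals alone. Another Cdk13 row, picked after its values were seen, had 0, 1 and 1 counts with cisplatin and 19, 3 and 9 with vehicle, and was not tested. Mnat1 encodes MAT1, which holds CDK7 and cyclin H together, and its most abundant row had 49, 24 and 9 counts with cisplatin and 66, 48 and 86 with vehicle, a log2 fold change of -0.27 ± 0.50 (adjusted p = 0.742) that was 0.11 without cisplatin library 3. The 2 other Mnat1 rows, outside the choice of 1 row per gene and picked after their values were seen, both fell. One had 2, 10 and 3 counts with cisplatin and 92, 47 and 66 with vehicle (-2.66 ± 0.64, adjusted p = 0.00848), and the other had 1, 7 and 2 with cisplatin and 38, 44 and 40 with vehicle (-2.58 ± 0.77, adjusted p = 0.0259). With the counts of all 3 rows summed, Mnat1 was called lower (-1.31, adjusted p = 0.0230).

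Of 10 tested genes that hold CDK9 inactive or bring it to the polymerase, 3 rose and 0 fell, with a median of 0.18. Hexim1 encodes the inhibitor that keeps CDK9 inactive within the 7SK particle, and it had 126, 200 and 225 CPM in cisplatin libraries against 38.7, 54.3 and 51.2 CPM in vehicle libraries. The lowest cisplatin value was above the highest vehicle value, as in 19.1% of all tested rows, and the log2 fold change was 1.93 ± 0.32 (edgeR adjusted p = 0.000896). Eaf1, which encodes a partner of ELL elongation factors, had 337, 290 and 439 CPM with cisplatin and 96.1, 73.9 and 125 CPM with vehicle (1.85 ± 0.30, adjusted p = 0.000726). Hexim1 and Eaf1 were called higher under every alternative run. Ell2, an elongation factor of the super elongation complex, had 119, 106 and 125 CPM with cisplatin and 48.6, 77.7 and 56.7 CPM with vehicle (0.94 ± 0.31, adjusted p = 0.0397).

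The Ell2 call was less stable. It was lost with the mouse as a block (adjusted p = 0.0509) and with library totals alone (0.49, adjusted p = 0.369). Leaving out cisplatin library 2 or 3 raised the adjusted p to 0.0586 or 0.0755, and leaving out vehicle library 1 or 3 raised it to 0.181 or 0.174. With the block 1 gene of this list fell, as without cisplatin library 3 or vehicle library 2, 2 fell with limma-voom, and 4 fell when libraries were scaled by totals.

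The Mediator kinase module and the pausing and elongation factors gave 0 calls, among 4 and 15 tested genes, with medians of -0.34 and 0.06. Med13 of the Mediator module had 72.2 ± 20.1 CPM with cisplatin and 97.2 ± 10.7 CPM with vehicle (log2 fold change -0.43 ± 0.32, edgeR adjusted p = 0.358), and Cdk19 had 19.8 ± 15.2 CPM with cisplatin and 23.5 ± 9.68 CPM with vehicle (-0.28 ± 0.68, adjusted p = 0.811, or 0.35 without cisplatin library 1). Another Cdk19 row, picked after its values were seen, had 0, 6 and 1 counts with cisplatin and 42, 14 and 18 with vehicle (-2.24 ± 1.03, adjusted p = 0.128). The FACT histone chaperone subunits Ssrp1 and Supt16 were at -0.02 ± 0.27 (adjusted p = 0.973) and -0.36 ± 0.28 (adjusted p = 0.390). In the elongation list 1 gene rose without cisplatin library 1 or 2, and 1 fell without cisplatin library 1 or vehicle library 3, with DESeq2, with no filter, with the mouse as a block or with scaling by totals.

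Of 8 tested genes of tail phosphatases and their adaptors 0 rose and 2 fell, with a median of -0.75. Ctdspl, a small phosphatase, fell to 9.30, 7.61 and 6.43 CPM with cisplatin, against 39.5, 21.5 and 37.0 CPM with vehicle (-2.06 ± 0.52, edgeR adjusted p = 0.0109), and leaving out vehicle library 1 or 3 ended the call at adjusted p-values of 0.0932 and 0.0685. Rprd1b, a protein that binds the phosphorylated tail, fell by 1.41 ± 0.49 on the log2 scale (adjusted p = 0.0497), and its call was lost with the mouse as a block (adjusted p = 0.0904) and without any single library (adjusted p = 0.0661 to 0.212). The list held 0 genes that fell when vehicle library 1 or 3 was dropped, and 1 when any other single library was.

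General initiation factors held 2 genes that rose among 8 tested and 0 that fell, with a median of 0.46. Gtf2h5, the smallest subunit of the TFIIH complex that also holds CDK7, had 222 ± 37.8 CPM with cisplatin and 71.2 ± 18.1 CPM with vehicle (SD, n = 3 each; log2 fold change 1.64 ± 0.30, edgeR adjusted p = 0.00158), and was called higher under every alternative run. Gtf2a1, a subunit of TFIIA, rose by 1.52 ± 0.38 (adjusted p = 0.0105) but missed the threshold once vehicle library 1 was dropped (adjusted p = 0.0726) or totals set the scale (adjusted p = 0.0866). The list held 4 genes that rose without cisplatin library 2 and 1 without vehicle library 1, and when libraries were scaled by totals 1 rose and 1 fell.

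Among subunits of RNA polymerases I and III 3 of 9 tested genes rose and 1 fell, with a median of 0.11. Polr1c and Polr1d, which encode a pair of subunits that these polymerases share, rose by 1.41 ± 0.28 (edgeR adjusted p = 0.00254) and 1.80 ± 0.40 (adjusted p = 0.00555), but scaling by totals ended the Polr1c call (0.94, adjusted p = 0.0530) and leaving out mouse 1 ended the Polr1d call (1.49, adjusted p = 0.0593). Polr3c rose by 1.09 ± 0.30 (adjusted p = 0.0164) but the call ended when cisplatin library 3, vehicle library 1 or vehicle library 3 was dropped (adjusted p = 0.0553, 0.106 and 0.0717) and under scaling by totals (0.60, adjusted p = 0.181). Further rows were picked after their values were seen. For Polr1c 1 rose by 1.69 ± 0.28 (edgeR adjusted p = 0.000783). For Polr1d 1 was at 0.51 ± 0.80 (adjusted p = 0.689), and for Polr3c 1 was at 0.32 ± 0.43 (adjusted p = 0.638). An untested Polr3c row had 0, 0 and 6 counts with cisplatin and 11, 14 and 11 with vehicle. An untested Polr1d row had 0, 0 and 8 with cisplatin and 2, 0 and 4 with vehicle. Polr3b, the counterpart of Polr2b in RNA polymerase III, had 1 count with cisplatin, in library 3, and 59 with vehicle, which held 23, 15 and 21 in libraries 1, 2 and 3. This row passed the count filter through its vehicle counts alone. Vehicle was 28.1-fold above cisplatin, with an exact 95% counting interval of 4.85 to 1130. The Polr3b call (adjusted p = 0.0176) was lost with the mouse as a block (adjusted p = 0.0550), when cisplatin library 2 was dropped (adjusted p = 0.0611), and when any vehicle library was dropped (adjusted p = 0.0604 to 0.135).

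**Figure D4:**
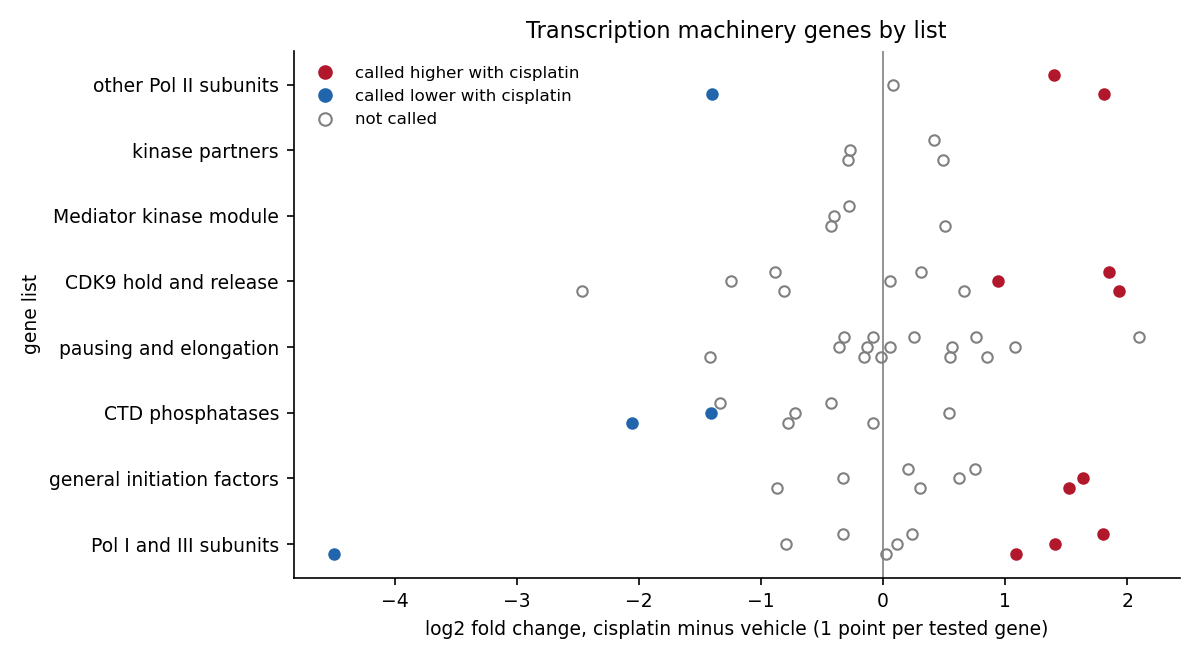
Log2 fold change, cisplatin minus vehicle (horizontal axis), of the 62 tested genes in 8 lists of transcription machinery (vertical axis), 1 point per gene; red points were called higher, blue points lower and open points were not called. The 3 red points of the list that holds and releases CDK9 are Hexim1, Eaf1 and Ell2, and the lists of kinase partners, Mediator kinase module and pausing and elongation factors hold open points only.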

How the data were processed

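Counts were deposited by the authors as whole numbers per probe row and library, in 1 table of 30146 rows for 21400 gene symbols. Per the submitters' processing notes, fastp 0.23.2, STAR 2.7.10b and DESeq2 1.44.0 were used. How reads were assigned to probes is not stated in the labels, so probes of near-identical genes may share reads.

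Low rows were removed with the filter of edgeR 4.0.16 (minimum count 10), and the remaining 9381 were scaled with TMM factors and tested for treatment with its quasi-likelihood test, fitted robustly, in R 4.3.3. The filter keeps a row that reaches the minimum in either group alone. Rows near 0 with cisplatin, such as those of Polr3b and several cell type markers, were therefore tested through their vehicle counts. P-values were adjusted over all tested rows (Benjamini-Hochberg, two-sided, threshold 0.05). Alternatives used limma 3.58.1 and DESeq2 1.42.0, other scalings, filters, summed probes, thinning, a mouse block and left-out libraries or mice. The analysis was tested on simulated data. All pairs of libraries differed by more than sampling noise (smallest chi-square per degree of freedom 9.33).

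Libraries were paired by mouse through the animal identifier in the labels. Deviations from group means correlated at -0.116, 0.034 and 0.219 in the 3 mouse pairs, and at -0.227 to 0.168 between different mice. The reported fit has no mouse term.

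The genes and lists were chosen with earlier results of these data known. All 10 genes are named, and of each list its called genes (at most 5, by p-value), or the 2 most abundant where none was called. The planned log2 ratio of Cdk12 to Cdk9 has no finite value without a pseudocount, since Cdk12 was at 0 in 2 libraries, and is given with one.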

Additional observations from a re-analysis of the deposited data

How the results depend on the processing

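With RLE or upper quartile factors, library totals alone, either other filter (none, or mean CPM of at least 10), limma-voom, summed probes, the 10 most abundant rows left out, the mouse as a replicate block or thinning, the number of rows called among these genes stayed at 0 in both directions, and with DESeq2 1 was called higher, Polr2a (0.97, adjusted p = 0.0313). With single libraries or mice left out, 0 to 1 was called higher and 1021 to 2538 rows were called in all, against 2344 as reported and 2197 with the replicate block. Genes of the 8 lists called higher numbered 5 with library totals alone and 6 to 12 with libraries or mice left out, against 10 as reported and 9 with the block. Those called lower numbered 11 with library totals alone, 7 with summed probes, 1 after thinning and 0 to 3 with libraries or mice left out, against 4 as reported and 3 with the block. Besides Polr2m, Ell2, Rprd1b and Polr3b, the block ended no call of a gene named.

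Signs changed for several values, none of which had passed its test as reported. Not all of them were near 0: as reported, Cdk9 was at 0.45, Cdk13 at 0.42 and Cdk7 at 0.4, while Ssrp1 was at -0.02. With library totals alone Cdk9 was at -0.03, the abundant Polr2c row at -0.33 and Cdk13 at -0.10. With summed probes Polr2c was at -0.04. Ssrp1 was at 0.02 with RLE factors, 0.02 with DESeq2 and 0.10 after thinning. With libraries or mice left out, Cdk7 ranged from -0.19 to 1.22, Polr2e from -0.83 to 0.12, Cdk19 from -0.83 to 0.38, Mnat1 from -0.95 to 0.18, Ssrp1 from -0.10 to 0.07 and the log2 ratio of Cdk7 to Cdk9 from -0.34 to 0.39 around its reported 0.02. The cause of these changes was not tested, except that library totals shift every row. The mouse-paired sign-flip test of the Polr2a ratio gave an exact p of 0.25, the smallest that 3 pairs allow. The planned pseudocount and the most abundant rows left that difference at 0.89 and 0.80.

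Polr2g, Polr2h, Cdk12 and the less abundant rows of some other genes held too few counts to be tested. The parts of depth, probe capture and RNA level in these low counts were not tested. An interval of Polr2e that runs from 0.441-fold to 1.72-fold leaves changes of that size undetected.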

Other observations

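Among genes of the lists that were under the count minimum, Ercc3 and a further Polr3b probe were picked after their values were seen. Ercc3, a helicase of TFIIH, had 39, 6 and 28 counts in cisplatin libraries, against 6, 1 and 16 counts in vehicle libraries. The further Polr3b probe had 0, 0 and 2 counts in cisplatin libraries, against 19, 4 and 14 in vehicle libraries. Neither row was tested.

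Of the 3 Ell2 probes, the most abundant one is described above, and the others were picked after their values were seen. One had 38, 76 and 29 counts with cisplatin and 13, 24 and 21 with vehicle (log2 fold change 2.27 ± 0.54, edgeR adjusted p = 0.00844). The other had 6, 10 and 21 counts with cisplatin and 50, 21 and 54 with vehicle (-0.57 ± 0.62, adjusted p = 0.546). As with Mnat1, Polr1d and Polr3c, probes of 1 gene gave different calls, and the difference between probes was not tested.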
